A study of Mus musculus with 13 samples.

Results

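The genes for 10 transcription factors that set up and hold B lineage identity were followed in WT and Whsc1-KO B cells, Whsc1 being a histone methyltransferase: Pax5, Ebf1, Tcf3, Spi1, Spib, Ikzf1, Ikzf3, Foxo1, Bach2 and Pou2af1. They were taken by symbol from a table of 47643 genes. All 10 were found, and all 10 were among the 13947 genes with enough reads to be tested. RNA came from 7 WT and 6 Whsc1-KO (Whsc1-/-) samples, called independent biological replicates in the series' design text. All were C57BL/6 by their labels, and their ages were not given in the sources used here. Loss of Whsc1 kills the embryo, so the B cells of both groups grew from blood precursors of the fetal liver, taken from WT or Whsc1-KO littermate embryos and placed in lethally irradiated RAG1-KO hosts, which cannot make B or T cells but keep other cells of their own. Splenic cells were depleted of CD43-positive cells and cultured with 25 µg/ml lipopolysaccharide (LPS) for 48 h. LPS, a bacterial cell wall component, makes resting B cells divide and switch antibody class. By the labels the transplanted precursors were already Whsc1-KO, so the cells had that genotype through their development and not only in culture.

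B cell fate rests on a small network of factors that bind DNA. E2A, the product of Tcf3, acts with Foxo1 to switch on Ebf1, and Ebf1 switches on Pax5, which activates B cell genes and silences genes of other lineages. PU.1 and Spi-B (Spi1 and Spib) are related ETS factors, Ikaros and Aiolos (Ikzf1 and Ikzf3) recruit chromatin remodelling complexes, Pou2af1 encodes a coactivator (OCA-B, also called Bob1) of octamer-binding factors, and Bach2 holds back the plasma cell program. When LPS drives B cells towards antibody-secreting cells, Prdm1 (Blimp-1) represses several of these genes.

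Values are the authors' normalized counts: reads per gene, scaled by a factor of the library. Reads in genes came to between 38881664 and 53019516 per WT library and between 39101317 and 49443099 per Whsc1-KO library, and each factor had at least 1556 normalized counts in every library. The targeted gene was read first: Whsc1 lay between 5537 and 7459 in WT and between 3733 and 5261 in Whsc1-KO, so its RNA was lower but not gone, and a count over a whole gene does not show which exons remain. Its log2 fold change was -0.54 over all libraries, -0.84 within replicates 1 to 3 and -0.27 within replicates 4 and above (limma adjusted p = 0.00049, 0.000707 and 0.0121), so it was least reduced in the set where Pax5, Tcf3 and Spib moved most. On the second principal component Whsc1-KO replicates 1 to 3 lay between -45.2 and -41.0, and replicates 4 to 6 between 11.2 and 33.8. All 6 myeloid markers tested were higher in Whsc1-KO over all libraries, beside 26.1% of all genes. Without Whsc1-KO replicates 4 to 6, 1 of the 6 was higher, beside 1947 of all 13947 genes. Within replicates 1 to 3, 2 of the 6 were higher, beside 947 of all genes. The full list of 11 myeloid markers summed to 1054 to 2036 in WT, 2474 to 2798 in Whsc1-KO replicates 1 to 3 and 11900 to 16184 in replicates 4 to 6. Lyz2 was the most abundant of them in the last set, and Elane was listed at 0 in every library. The 9 erythroid markers summed to 866 to 3324 in WT and to 12920 to 194424 in Whsc1-KO replicates 4 to 6, with the globin gene Hbb-bs leading (globin genes have close copies that can share reads). Of 7 T cell markers 3 stayed under 10 in every library, and all 4 natural killer cell markers stayed under 10 in WT. The B cell markers were present throughout (Cd79b at 25361 or more, Ighm the most abundant), with 4 of 6 lower in Whsc1-KO, beside 25.7% of all genes. Without Whsc1-KO replicates 4 to 6, 3 of these 6 were lower, beside 15.6% of genes. Xist and Y-linked RNA marked WT replicates 1 to 5 and Whsc1-KO replicates 4 and 5 as female and the others as male. Within replicates 1 to 3 genotype and sex therefore cannot be told apart. Without Whsc1-KO replicates 4 to 6 they largely coincide too: all Whsc1-KO libraries left are male, and of WT only replicates 6 and 7 are.

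Whsc1-KO B cells kept RNA of all 10 factors at levels close to WT. Foxo1, Ebf1 and Spib fell to between 78.5% and 85.3% of their WT means, Pou2af1 rose to 129.6% and Tcf3 to 114%, and Pax5, Spi1, Bach2, Ikzf3 and Ikzf1 did not pass the test (limma on log2 values, adjusted over all genes tested). These 5 of 10 called are to be read against 51.8% of all tested genes called in either direction, 26.1% higher and 25.7% lower: the share is near the background. The factors' median size of change was 0.21 on the log2 scale, against 0.31 over all genes tested, and the largest, that of Pou2af1, was 0.38, which is bigger than the change of 57.9% of genes. With all 13 libraries the WT and Whsc1-KO values overlapped for each of the 10, while 19.3% of tested genes had groups that did not overlap. The authors' deposited table also called Ebf1, Foxo1, Pou2af1, Spib and Tcf3 (adjusted p = 0.000307, 0.000522, 0.00059, 0.00679 and 0.0394 there) and gave Pax5 an adjusted p of 0.0717. In bulk RNA, fewer cells that express a gene and less RNA per cell cannot be told apart.

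**Figure D1:**
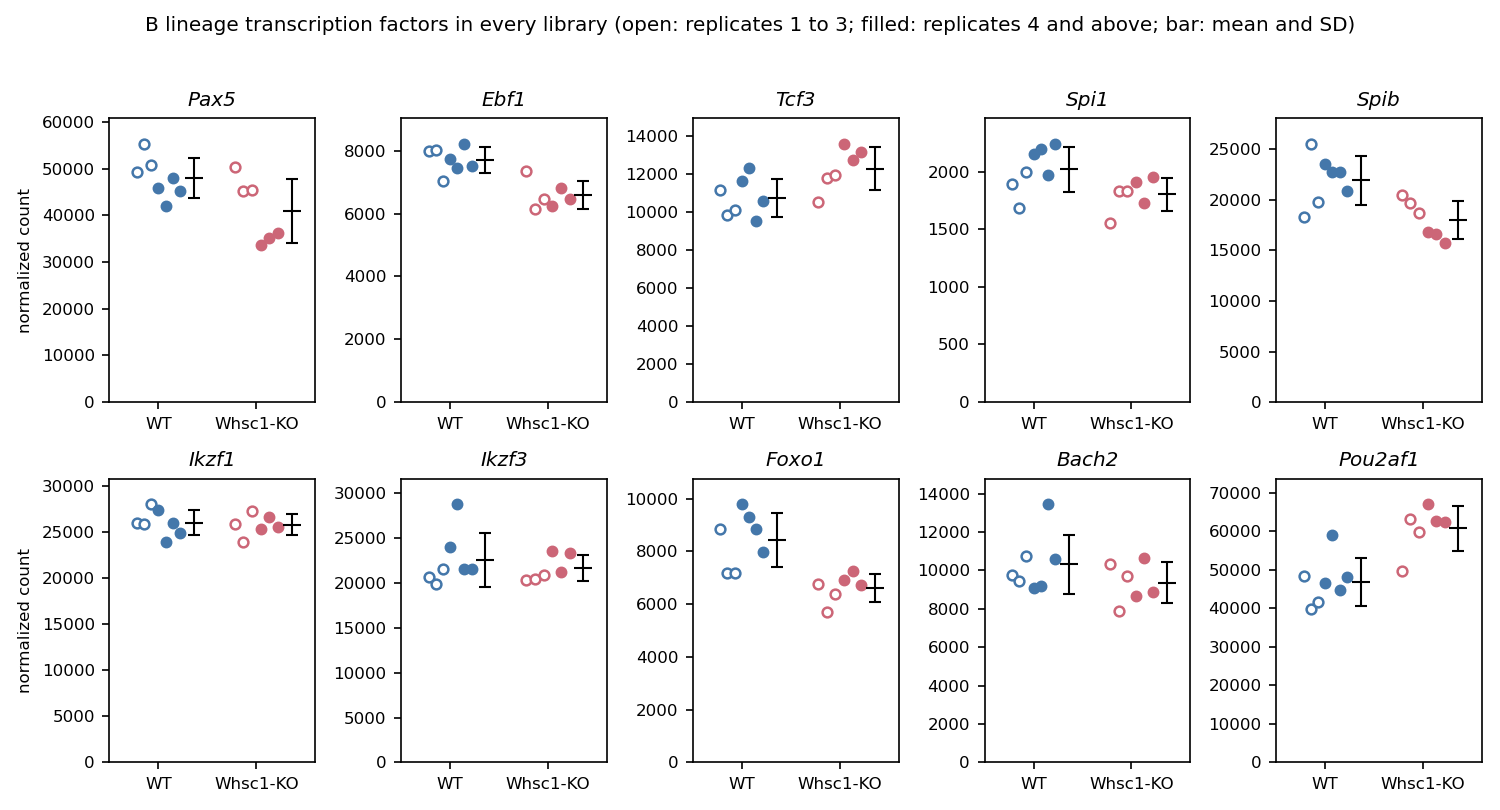
Normalized counts (axis from 0) of the 10 factors in each of 7 WT and 6 Whsc1-KO libraries, 1 panel per gene; open points are replicates 1 to 3, filled points replicates 4 and above, and the black bar is the mean with its SD. The groups overlap in every panel, for Pou2af1 through 1 Whsc1-KO library. Whsc1-KO replicates 4 to 6 lie below every WT library for Pax5, Ebf1 and Spib, and above every WT library for Tcf3 and Pou2af1. Of all tested genes, 52.6% had those replicates all below or all above WT.

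The sequences upstream of the 5 factors whose RNA passed the test are shown because several of these factors are known to act on each other's genes. Each is the 250 bases before the annotated start, 5′ to 3′ on the gene's own strand, from RefSeq (GRCm38.p6). Entries were found for 8 of the 10 factors, and none for Spi1 and Ikzf3; Ebf1 and Ikzf1 have more than 1 start, and the later Ebf1 start is shown. Capitals mark matches, on either strand, to any of 7 short motifs: the octamer core TGCAAAT, the E-box CANNTG bound by E proteins, the Ebf1 palindrome (TCCC and GGGA with 2 bases between), the FOXO site GTAAACA, the ETS core AGGAAG, the Ikaros core TGGGAA and the Bach and Maf core TGANTCA.
Pou2af1, chr9:51213440-51213689, plus strand: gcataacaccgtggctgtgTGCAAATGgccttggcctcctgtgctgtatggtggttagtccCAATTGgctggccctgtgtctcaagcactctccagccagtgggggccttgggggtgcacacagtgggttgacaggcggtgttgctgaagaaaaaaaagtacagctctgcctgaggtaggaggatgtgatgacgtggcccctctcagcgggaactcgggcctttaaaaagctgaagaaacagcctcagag
Tcf3, chr10:80433636-80433885, minus strand: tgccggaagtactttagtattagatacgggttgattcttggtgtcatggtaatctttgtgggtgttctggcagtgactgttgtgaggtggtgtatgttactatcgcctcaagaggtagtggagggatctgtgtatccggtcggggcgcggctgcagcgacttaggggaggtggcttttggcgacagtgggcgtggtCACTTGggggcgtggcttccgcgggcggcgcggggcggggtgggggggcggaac
Spib, chr7:44532072-44532321, minus strand: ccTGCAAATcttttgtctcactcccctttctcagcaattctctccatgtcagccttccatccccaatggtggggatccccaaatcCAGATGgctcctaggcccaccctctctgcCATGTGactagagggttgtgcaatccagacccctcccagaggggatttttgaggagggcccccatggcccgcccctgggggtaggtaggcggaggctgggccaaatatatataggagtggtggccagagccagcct
Foxo1, chr3:52268087-52268336, plus strand: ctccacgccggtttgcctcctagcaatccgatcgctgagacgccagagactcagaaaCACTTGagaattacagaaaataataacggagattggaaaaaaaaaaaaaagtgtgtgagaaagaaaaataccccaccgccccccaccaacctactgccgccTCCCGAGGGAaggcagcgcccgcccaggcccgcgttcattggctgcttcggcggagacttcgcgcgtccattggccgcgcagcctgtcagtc
Ebf1, chr11:44619978-44620227, plus strand: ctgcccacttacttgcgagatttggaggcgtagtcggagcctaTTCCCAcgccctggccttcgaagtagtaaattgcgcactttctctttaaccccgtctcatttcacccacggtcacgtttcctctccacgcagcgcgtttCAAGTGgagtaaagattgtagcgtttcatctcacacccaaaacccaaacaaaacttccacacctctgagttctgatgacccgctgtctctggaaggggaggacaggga

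The octamer core, the site used by the partners of Pou2af1, stood in the windows of Pou2af1 itself (position -231 from the start) and Spib (-248), and in 3.56% of 32851 mouse promoter windows of this length. In Pou2af1 an E-box overlaps it. The Ebf1 site stood in the Foxo1 window (-92) and in 0.779% of all windows. E-boxes are common, present in 66.2% of windows, and each of the 5 windows shown holds at least 1. The window of the other Ebf1 start, not shown, holds no match to any of the 7 motifs. These matches describe letters. No binding was measured here, and Pou2af1 and Spib, which share the octamer core, had log2 fold changes of opposite sign.

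Per length, the factors differed far more from each other than between genotypes. In normalized counts per kilobase of annotated exon, the WT mean was 18418 ± 2450 (SD, n = 7) for Pou2af1, 7639 ± 851 for Spib, 5428 ± 483 for Pax5 and 4509 ± 239 for Ikzf1. Tcf3 followed at 2663 ± 253 and Ikzf3 at 2578 ± 342, and Bach2, Foxo1, Ebf1 and Spi1 lay between 1038 and 749.6. In that order the WT ranges of neighbours overlapped for Pax5 and Ikzf1, for Tcf3 and Ikzf3, and for each step from Bach2 to Spi1. Within single libraries Pax5 still lay above Ikzf1, and Foxo1 above Ebf1, in every WT library. The other overlapping neighbours changed order between WT libraries. Spib exceeded its relative Spi1 per kilobase by a ratio of 10.3 ± 1.87 over the WT libraries and of 9.48 ± 1.68 over the Whsc1-KO libraries (SD). Ikzf1 exceeded Ikzf3 by 1.78 ± 0.247 and 1.82 ± 0.147. Both ratios overlapped between the genotypes.

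**Figure D2:**
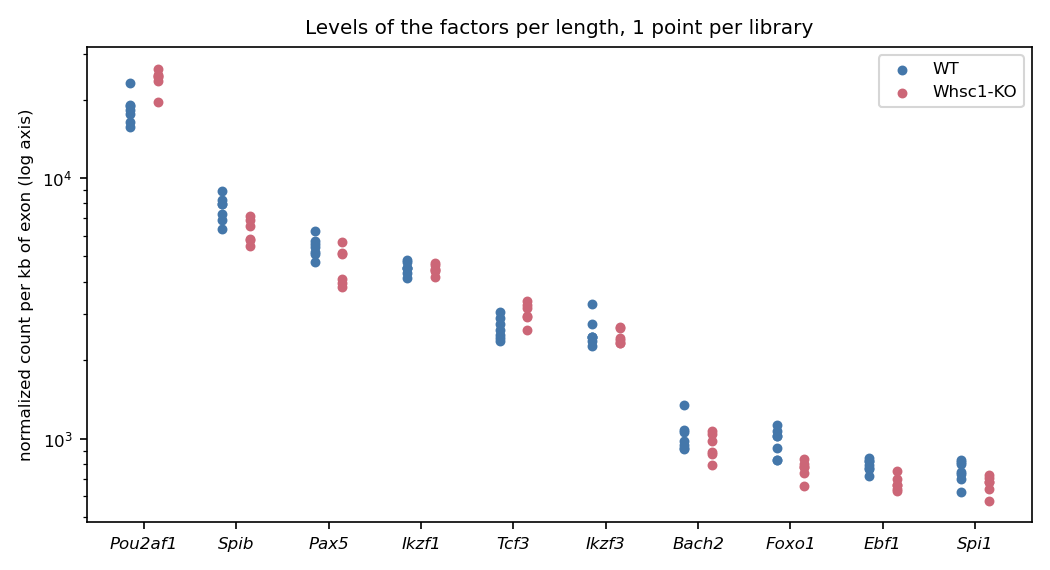
Normalized count per kilobase of exon (log axis) of the 10 factors, ordered by their WT mean, with 1 point per library in WT and Whsc1-KO. Pou2af1 lies highest, at a WT mean of 18418, and Spi1 lowest, at 749.6.

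Tcf3, Ebf1, Foxo1 and Pax5 form the core of the network. Tcf3 encodes the E proteins E12 and E47 (chromosome 10, 80409514 to 80433647, minus strand, GRCm38). Its normalized counts ran from 9572 through a median of 10584 to 12356 in WT, and from 10536 through 12366 to 13594 in Whsc1-KO. Whsc1-KO replicates 4 to 6, at 12754 to 13594, lay above every WT library, and replicates 1 to 3 lay inside the WT range. Tcf3 rose by 0.20 on the log2 scale (SE 0.07, 95% confidence interval 0.04 to 0.35, limma adjusted p = 0.0384). The call held in 6 of the 13 fits that each left out 1 library, and it was lost without Whsc1-KO replicates 4 to 6 (0.09, adjusted p = 0.427).

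Ebf1 (early B cell factor 1; chromosome 11, 44617317 to 45008091, plus strand) ran from 7037 through 7741 to 8213 in WT and from 6136 through 6471 to 7350 in Whsc1-KO. Only Whsc1-KO replicate 1 reached into the WT range. Its log2 fold change was -0.23 (SE 0.05, 95% confidence interval -0.34 to -0.12, limma adjusted p = 0.00278), and it passed in all 13 fits with 1 library left out. With Whsc1-KO replicates 4 to 6 left out it was -0.22 (adjusted p = 0.0336), within replicates 1 to 3 -0.21 (adjusted p = 0.141), and within replicates 4 and above -0.25 (adjusted p = 0.00502). Its size therefore lay between -0.21 and -0.25 in these sets of libraries.

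Foxo1, a forkhead factor needed for Rag gene expression in B cell precursors and for homing and class switching in mature B cells, lies on chromosome 3 (52268336 to 52353221, plus strand). It ran from 7171 through 8838 to 9776 in WT and from 5693 through 6746 to 7261 in Whsc1-KO. WT replicates 2 and 3, at 7172 and 7171, were the WT libraries within the Whsc1-KO range. The log2 fold change of Foxo1 was -0.34 (SE 0.08, 95% confidence interval -0.52 to -0.17, limma adjusted p = 0.00346), and again all 13 fits with 1 library left out passed. It was -0.36 within replicates 4 and above (adjusted p = 0.00282), and -0.42 when Whsc1-KO replicates 4 to 6 were set aside (adjusted p = 0.0122). Ebf1 and Foxo1 were the 2 of the 10 factors that passed both with all libraries and without Whsc1-KO replicates 4 to 6, where 29.6% of all genes passed.

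Pax5, the factor that commits cells to the B lineage, lies on chromosome 4 (44524757 to 44710487, minus strand). It ran from 42063 through 48038 to 55237 in WT and from 33698 through 40722 to 50278 in Whsc1-KO. The Whsc1-KO libraries fell into separate ranges: replicates 1 to 3 held 45268 to 50278, inside the WT range, and replicates 4 to 6 held 33698 to 36176, below every WT library. Over all libraries the log2 fold change was -0.24 (SE 0.10, 95% confidence interval -0.46 to -0.02, limma adjusted p = 0.059), short of the threshold. It passed within replicates 4 and above (-0.37, adjusted p = 0.00111) and not without Whsc1-KO replicates 4 to 6 (-0.03, adjusted p = 0.823). It also passed with a sex score as a covariate (-0.28, adjusted p = 0.0355), with library weights (-0.39, adjusted p = 0.000696) and in 4 of the 13 fits with 1 library left out. Whsc1-KO replicates 4 to 6 are also the libraries with the highest myeloid and erythroid marker sums given above; their part in the levels of Pax5, Tcf3 and Spib was not tested.

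Pou2af1, the octamer coactivator needed for germinal centres (chromosome 9, 51213708 to 51240080, plus strand), had the largest change. It ran from 39967 through 46649 to 59138 in WT and from 49789 through 62574 to 66983 in Whsc1-KO. All Whsc1-KO libraries other than replicate 1 lay above every WT library, and WT replicate 5 was the WT library that reached past the lowest Whsc1-KO value. The log2 fold change of Pou2af1 was 0.38 (SE 0.09, 95% confidence interval 0.18 to 0.58, limma adjusted p = 0.00422), with all 13 fits passing when 1 library was left out. Within replicates 1 to 3 it was 0.41 (adjusted p = 0.0503) and within replicates 4 and above 0.38 (adjusted p = 0.01). Leaving out Whsc1-KO replicates 4 to 6, it was 0.30 and did not pass (adjusted p = 0.0722).

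Of the ETS pair, Spib fell and Spi1 did not pass. Spib (chromosome 7, 44525993 to 44532071, minus strand) ran from 18272 through 22700 to 25483 in WT and from 15752 through 17741 to 20458 in Whsc1-KO. Its Whsc1-KO replicates 4 to 6, at 15752 to 16791, lay below every WT library, and replicates 1 to 3, from 18691 to 20458, were inside the WT span. The log2 fold change of Spib was -0.28 (SE 0.09, 95% confidence interval -0.46 to -0.10, limma adjusted p = 0.0129), passing in all 13 fits with 1 library left out, at -0.45 within replicates 4 and above (adjusted p = 0.000241) and at -0.15 without Whsc1-KO replicates 4 to 6 (adjusted p = 0.236).

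Spi1 (chromosome 2, 91082390 to 91115756, plus strand), which B cells share with macrophages and granulocytes, ran from 1684 through 1999 to 2238 in WT and from 1556 through 1833 to 1956 in Whsc1-KO. Its log2 fold change of -0.16 (95% confidence interval -0.32 to -0.003) did not pass (limma adjusted p = 0.0814). In Whsc1-KO replicates 4 to 6, where the myeloid marker sum was highest, Spi1 lay at 1731 to 1956, inside the full WT range. WT replicates 4 to 7 lay higher, at 1972 to 2238, and within replicates 4 and above Spi1 passed (-0.20, limma adjusted p = 0.0352). Both ETS genes thus had lower means in Whsc1-KO, and the difference between their changes was not tested.

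Ikzf1, which encodes Ikaros, was the flattest of the 10 over all libraries. It ran from 23940 through 26037 to 28035 in WT and from 24010 through 25733 to 27324 in Whsc1-KO, with the Whsc1-KO range inside that of WT. Its log2 fold change was -0.01, and the 95% confidence interval of -0.12 to 0.10 bounds the difference (limma adjusted p = 0.854). It lies on chromosome 11 from 11685003 to 11772926 (plus strand), and Ikzf3, which encodes Aiolos, on the same chromosome from 98464902 to 98546031 (minus strand). Ikzf3 ran from 19902 through 21550 to 28722 in WT and from 20299 through 21040 to 23524 in Whsc1-KO. Its log2 fold change was -0.06 (95% confidence interval -0.23 to 0.12, limma adjusted p = 0.582). The highest value belonged to WT replicate 5, and the sign of both genes turned in some fits with 1 library left out.

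Bach2 (chromosome 4, 32238804 to 32586108, plus strand) did not pass either. It ran from 9066 through 9759 to 13429 in WT, the highest being replicate 6, and from 7858 through 9289 to 10625 in Whsc1-KO. The log2 fold change of Bach2 was -0.14 (95% confidence interval -0.34 to 0.07, limma adjusted p = 0.242), and 0 of the 13 fits with 1 library left out passed. It was at -0.07 without WT replicate 6 and at -0.09 without Whsc1-KO replicate 2. Annotated genes that overlap the 10 factors were low. The highest, an antisense gene across Ikzf1, had a mean of 62.5 normalized counts, or 0.241% of the Ikzf1 mean.

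**Figure D3:**
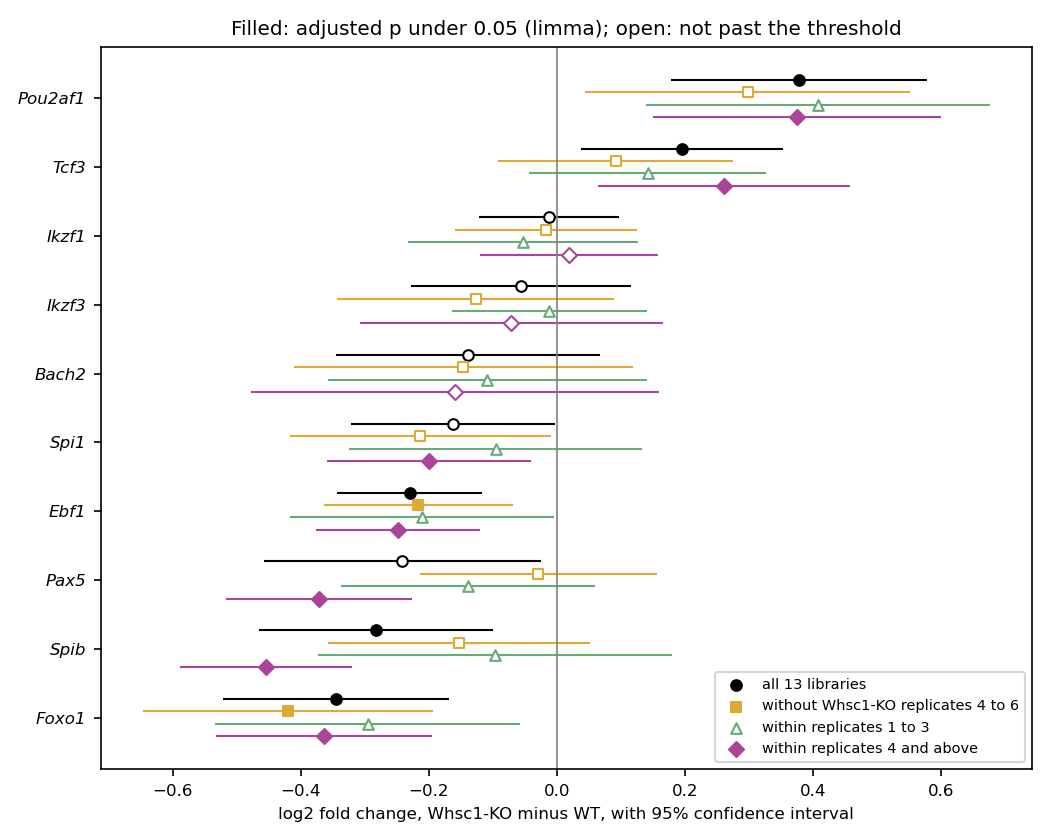
Log2 fold changes (Whsc1-KO minus WT) of the 10 factors with 95% confidence intervals, from all 13 libraries and from 3 smaller sets of libraries; filled symbols passed an adjusted p of 0.05. Ebf1 lies between -0.21 and -0.25 in all of them and Foxo1 between -0.30 and -0.42, while Pax5 ranges from -0.37 within replicates 4 and above to -0.03 without Whsc1-KO replicates 4 to 6.

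Within the libraries numbered 4 and above 7 of the 10 factors had groups that did not overlap, Tcf3 and Pou2af1 higher and Pax5, Ebf1, Spi1, Spib and Foxo1 lower, beside 62.4% of all tested genes. Those same 7 passed the test within that set, beside 60.1% of all genes. Set against all WT libraries, Whsc1-KO replicates 4 to 6 did not overlap WT for 5 of the 10. These were Tcf3 and Pou2af1 (higher) and Pax5, Ebf1 and Spib (lower), beside 52.6% of all tested genes. Within replicates 1 to 3, Pou2af1 (higher) and Foxo1 (lower) had groups that did not overlap, beside 38.1% of all genes, and 0 factors passed the test (limma) beside 15.6% of genes.

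The genomic span of a gene went with the direction of change across the transcriptome, and the 10 factors fall into each of the span classes compared. Among protein-coding genes over 200 kb 49.8% were lower and 11.7% higher. Ebf1 (391 kb) and Bach2 (347 kb) belong to that class. Between 10 and 30 kb, where Tcf3 (24.1 kb) and Pou2af1 (26.4 kb) lie, 34.2% were higher and 20.6% lower. Spib, at 6.08 kb, fell although genes under 10 kb were higher in 38.2% and lower in 16.3% of cases. The part of span in the change of any single factor was not tested.

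Of 15 close relatives of the factors 9 were tested, and 1 rose and 1 fell, beside 26.1% of all tested genes higher and 25.7% lower. Their median was -0.14 on the log2 scale. Means that follow are given ± SD over the 7 WT or the 6 Whsc1-KO libraries. Foxo3, which shares targets with Foxo1, averaged 4067 ± 362 against 3109 ± 559 in Whsc1-KO, at -0.40 on the log2 scale (limma adjusted p = 0.0049), and was at -0.18 and no longer passed without Whsc1-KO replicates 4 to 6 (adjusted p = 0.113). Spic, the ETS factor of red pulp macrophages, rose by 1.49 (adjusted p = 0.00506), at a WT mean of 38.0. It was at 0.66 without Whsc1-KO replicates 4 to 6 (adjusted p = 0.135), the libraries with the highest myeloid marker sums, and the part of those cells was not tested. The E protein gene Tcf12 (HEB) had -0.28 over all libraries (adjusted p = 0.109) and -0.60 without Whsc1-KO replicates 4 to 6 (adjusted p = 0.00102). Ebf4, at a WT mean of 15.0, had -0.93 (adjusted p = 0.0684). The untested relatives Pax2, Pax8, Ebf2 and Ebf3 were at 1.2 or less in every library.

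Among 13 partners and corepressors 4 fell and 0 rose, at a median of -0.09, and the other 9 did not pass; the share that fell is near the 25.7% of all genes. Ets1, which binds with Pax5, had -0.42 (limma adjusted p = 0.000578) and was at -0.48 without Whsc1-KO replicates 4 to 6. Irf8, a partner of PU.1, had -0.28 (adjusted p = 0.00163). Runx1, which acts with Ebf1, had -0.41 (adjusted p = 0.00472). The Groucho corepressor gene Tle1 averaged 426 ± 57.6 in WT against 180.1 ± 49.9 in Whsc1-KO, at -1.27 (adjusted p = 6.09e-05). When Whsc1-KO replicates 4 to 6 were set aside, Runx1 was at -0.26 and no longer passed (adjusted p = 0.117).

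Id proteins bind E proteins such as E2A and keep them off DNA. Of 2 tested members 1 rose, beside 26.1% of all tested genes higher. Id2 averaged 213 ± 77.6 in WT against 792 ± 257 in Whsc1-KO, a log2 difference of 1.94 (limma adjusted p = 0.000145). It was at 1.62 without Whsc1-KO replicates 4 to 6 (adjusted p = 0.00479). The WT libraries lay between 88.8 and 316 and the Whsc1-KO libraries between 506 and 1227, with no overlap. Of all tested genes, 19.3% had groups that did not overlap. Id3 had -0.07 and did not pass (adjusted p = 0.62).

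Most of the listed genes that Pax5 activates were lower. Of these 12 genes 9 fell and 0 rose, at a median log2 fold change of -0.34, beside a median of -0.003 over all genes tested and 25.7% of genes lower. The inhibitory receptor gene Cd72 had -0.83 (limma adjusted p = 2.19e-05). Fcer2a, the low-affinity IgE receptor gene, had -1.51, and the adaptor gene Nedd9 -0.32 (adjusted p = 0.000665 and 0.00127). Irf8, given above as a partner of PU.1, is also on this list. Without Whsc1-KO replicates 4 to 6, where Pax5 was at -0.03, 6 of the 12 were still lower, with Cd72 at -0.68, beside 15.6% of all genes lower in that fit. Of 8 tested genes that Pax5 represses 4 rose and 1 fell, at a median of 0.45, beside 26.1% of all genes higher. Notch1 rose by 0.75 (adjusted p = 0.00028), the secretory factor gene Xbp1 by 0.51 (adjusted p = 0.026) and the chemokine gene Ccl3 by 1.84 (adjusted p = 0.00375). The fourth that rose was Csf1r, a myeloid marker, named after its value was seen (2.53), and the one that fell was the cytokine receptor gene Flt3 (-1.17, adjusted p = 0.00148). Without Whsc1-KO replicates 4 to 6, 1 rose (Notch1, 0.53) and 1 fell, the median was 0.14 and 1947 of all 13947 genes were higher. Ccl3 and Csf1r were at 0.80 and 0.23 in that fit, and at 3.18 and 4.83 within replicates 4 and above. Csf1r is itself part of the myeloid marker sums, and the part of myeloid cells in both genes was not tested.

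Of 5 tested targets of Ebf1 and E2A in early B cells 2 fell, beside 25.7% of all genes, Cd79b at -0.60 and Cd79a at -0.33 (limma adjusted p = 0.00027 and 0.00949), which encode the signalling chains of the antigen receptor. Vpreb3, Blk and Rag1 had -0.16, -0.15 and -0.45 and did not pass (adjusted p = 0.656, 0.123 and 0.709). The other 5, Igll1, Vpreb1, Vpreb2, Rag2 and Dntt, genes of B cell precursors, were at 12.5 or less in every library and were not tested. Vpreb3 did pass without Whsc1-KO replicates 4 to 6, at -0.79 (adjusted p = 0.0336).

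Of 14 tested genes that Foxo1 activates 9 fell and 0 rose, at a median log2 fold change of -0.73, and without Whsc1-KO replicates 4 to 6 the count was 7 and the median -0.54. Over all genes 25.7% were lower, and 15.6% without those replicates. The cell cycle inhibitor gene Cdkn1b averaged 7366 ± 1233 in WT against 4470 ± 221 in Whsc1-KO, at -0.70 on the log2 scale (limma adjusted p = 0.000112). The insulin receptor gene Insr had -0.81, the germinal centre factor gene Bcl6 -1.11 and the homing receptor gene Ccr7 -1.20 (adjusted p = 0.000129, 0.000161 and 0.000229).

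Genes that Bach proteins repress, many of them in the response to oxidants and haem, were higher in part. Of 9 tested 5 rose and 0 fell, at a median log2 fold change of 0.61, beside 26.1% of all genes higher. The median was 0.20 without Whsc1-KO replicates 4 to 6. Txnrd1 rose by 0.99, Nqo1 by 1.63, Gclm by 0.66 and the haem oxygenase gene Hmox1 by 2.30 (limma adjusted p = 0.000668, 0.000689, 0.000871 and 0.00421). Hmox1 is also abundant in macrophages that clear red cells, and the part of such cells was not tested. It was at 0.84 without Whsc1-KO replicates 4 to 6 (limma adjusted p = 0.0401). In that fit 4 of the list were higher and 1 lower, beside 1947 and 2177 of all 13947 genes. Bach2 holds down Prdm1 too. In the list of 5 plasmablast genes Sdc1 and Xbp1 rose, by 1.44 and 0.51, beside 26.1% of all genes higher. Prdm1, Irf4 and Jchain had 0.39, 0.34 and 0.30 and did not pass (limma adjusted p = 0.128, 0.112 and 0.47). Among Whsc1-KO replicates 1 to 3 and all WT libraries, Sdc1 was the member that still passed (0.96, limma adjusted p = 0.0467). In that fit 1947 of all 13947 genes were higher. Within replicates 1 to 3, 0 of the 5 passed, beside 947 of all genes higher and 1222 lower.

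Of 5 targets shared by PU.1 and Spi-B in B cells 1 fell, beside 25.7% of all genes, the receptor gene P2ry10 at -0.39 (limma adjusted p = 0.000226; -0.45 without Whsc1-KO replicates 4 to 6). Btk, Nfkb1, Fcgr2b and Tlr9 had 0.06, -0.15, -0.44 and -0.30 and did not pass (adjusted p = 0.313, 0.0574, 0.0945 and 0.133). For Fcgr2b and Tlr9 the sets of libraries pulled apart, at -0.98 and -0.73 within replicates 4 and above and 0.09 and 0.04 without Whsc1-KO replicates 4 to 6.

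Ikaros and Aiolos act with the NuRD complex, which joins a chromatin remodeller to histone deacetylases. While Ikzf1 and Ikzf3 did not pass, 7 of 13 NuRD genes rose and 3 fell, at a median log2 fold change of 0.25, beside 26.1% of all genes higher and 25.7% lower. Mta2 rose by 0.32, the deacetylase gene Hdac1 by 0.32 and Mbd3 by 0.28, and Gatad2b fell, at -0.31 (limma adjusted p = 0.000272, 0.000754, 0.00181 and 0.000134). Without Whsc1-KO replicates 4 to 6, 3 rose and 2 fell, beside 1947 and 2177 of all 13947 genes, and the median was 0.10. Mta2 was at 0.26, Hdac1 at 0.22, Mbd3 at 0.25 and Gatad2b at -0.29 in that fit. Within replicates 1 to 3, 0 rose and 1 fell (limma), at a median of 0.04, beside 947 of all genes higher and 1222 lower.

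Of 11 other transcription factor genes of B cells 4 fell and 1 rose, at a median of -0.07, a share near the 51.8% of all genes called in either direction. Bcl11a, needed for early B cells, averaged 15194 ± 840 in WT against 10786 ± 1402 in Whsc1-KO, at -0.50 on the log2 scale (limma adjusted p = 0.000204). Bcl6 had -1.11 and Lmo2 -0.78 (adjusted p = 0.000161 and 0.000974), and Mef2b rose by 1.32 (adjusted p = 0.0016). All 4 passed without Whsc1-KO replicates 4 to 6, at -0.34, -1.01, -0.48 and 0.69.

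**Figure D4:**
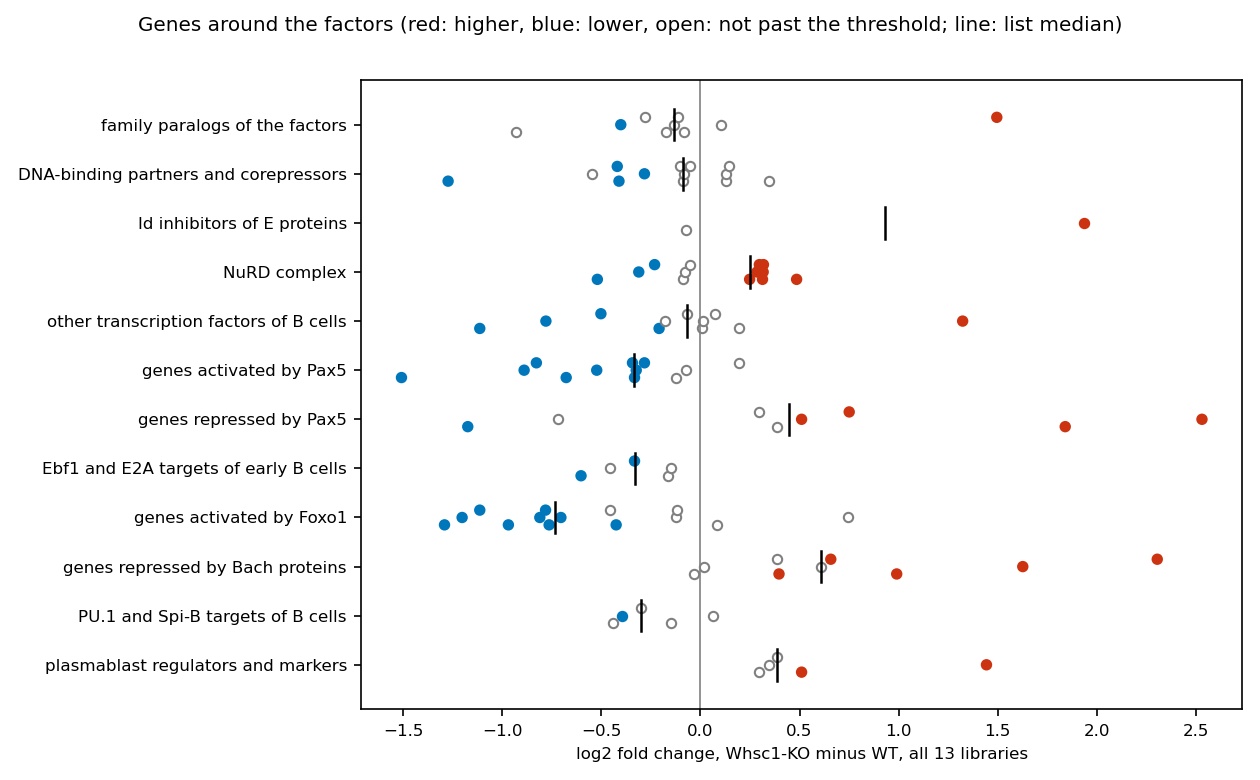
Log2 fold changes (Whsc1-KO minus WT, all 13 libraries) of the tested genes of 12 lists around the factors, 1 point per gene; red passed as higher, blue as lower, open points did not pass, and the black line is the list median. Genes activated by Foxo1 have a median of -0.73 and genes activated by Pax5 one of -0.34, and the lists share some genes.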

How the data were processed

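RNA of LPS-stimulated splenic B cells was poly-A selected and sequenced in strand-specific pairs of 76-base reads, per the labels' protocols. The submitters' processing notes name 2 builds (GRCm38, mm9) and the tools STAR 2.5.1b, RSEM 1.2.28 and DESeq2 1.10.1 without giving their roles, and whether counting used the strand is not given in the sources used here. The authors deposited normalized counts per gene, a signal value with a single scale per library: 100% of the values in each library were whole multiples of 1 step (tolerance 0.05 reads). A second table the authors deposited holds, per the file headers, a log2 fold change, a test score and p-values for each gene, and is quoted where it is named.

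Each listed factor was found by its symbol in the deposited table. Normalized counts plus a pseudocount of 1 were put on the log2 scale, genes that did not reach 10 in at least 6 libraries were dropped, and the remaining 13947 were fitted together by limma 3.58.1 (R 4.3.3) with a mean-variance trend. Tests were two-sided, adjusted by Benjamini-Hochberg over all 13947 genes, with 0.05 as the threshold. Fold changes on this scale understate those of low genes. The recovered reads served edgeR 4.0.16 and DESeq2 1.42.0, as alternatives, and further alternatives covered the pseudocount, filter, scaling, library weights, a sex score, a replicate block and sets of libraries. The fit was tested on simulated data. Intervals and p-values cover the spread between these 13 libraries. Exon lengths and coordinates come from GENCODE M21 (GRCm38), matched by 99.1% of identifiers, and upstream sequences from RefSeq (GRCm38.p6).

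The 10 factors, the gene lists and the tests were chosen with earlier results of these data known. The rule for naming genes took all 10 factors and Whsc1, every tested member of a list of 6 or fewer, the 4 members with the smallest adjusted p of each other list, and of each marker list the members at 0 and the most abundant; Csf1r, Cd34 and the untested Pax2, Pax8, Ebf2, Ebf3, Igll1, Vpreb1, Vpreb2, Rag2 and Dntt fall outside it, named with their values already known. A few of the listed genes are not reported here and enter no count of a list. The replicate numbers occur in both groups but do not pair the samples: over the 6 shared numbers the correlation of deviations from the group means ran from -0.11 to 0.21. The closest libraries within a group differed by a chi-square of 26.8 per gene, so none was counted as a repeat of another.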

Additional observations from a re-analysis of the deposited data

Results flagged for a closer look

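Of 114 sets of libraries checked (57 genes in 2 genotypes), 6 held a library far from the rest of its group by Dixon's test at the 95% level; chance flags about 1 in 20. Among the 10 factors this was Bach2 in WT replicate 6, at 13429 normalized counts against 9066 to 10759 in the other WT libraries. WT replicate 5 stood out high for Irf8 (34783, the next WT library at 31969), for Prdm1 (15880, next 10692) and for Vpreb3 (3156, next 1963). WT replicate 2 was high for Spic, at 65.7 against 39.3 in the next library. WT replicate 1 was high for Tcf12, at 6530 against 5769 in the next.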

How the results depend on the processing

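The calls of Ebf1, Spib and Foxo1 (lower) and Pou2af1 (higher) held under both pseudocounts, both filters, both scalings, edgeR, DESeq2, library weights, the sex score and each library left out. Of the 10 factors, 1 rather than 2 was higher with no filter, with upper quartile scaling and at an adjusted p under 0.01, since Tcf3 no longer passed; Spib did not reach 0.01 either. Lower were 5 rather than 3 with upper quartile scaling, which added Pax5 and Spi1, and 5 within replicates 4 and above. Without Whsc1-KO replicates 4 to 6, 0 were higher; within replicates 1 to 3, 0 were higher and 0 lower (limma; causes were not tested, though fewer samples entered these fits). Leaving out 1 library at a time gave 1 to 2 higher and 3 to 4 lower. Over all genes, 1947 were higher and 2177 lower without Whsc1-KO replicates 4 to 6, and 947 and 1222 within replicates 1 to 3, against 3636 and 3588 with all libraries; of the 94 tested genes in the lists around the factors 51 (54.3%, beside 51.8% of all genes) passed with all libraries and 22 (23.4%, beside 15.6%) within replicates 1 to 3. The fit with the replicate number as a block left out WT replicate 7, and these numbers do not pair the samples. In it 1 factor was higher (Pou2af1) and 4 lower, Pax5 among them (limma adjusted p = 0.037). In all, 6106 genes passed there, against 7224 with all 13 libraries. Tcf3 already did not pass without WT replicate 7 and with no block (adjusted p = 0.0612). Not every library correlated best with its own number. Signs turned for Ikzf1 within replicates 4 and above (0.0192) and over single libraries left out (-0.0323 to 0.00844), and for Ikzf3 with library weights (0.0282) and over single libraries left out (-0.0842 to 0.00401); neither passed anywhere. Each factor had over 1500 normalized counts in every library. What limited the calls was not tested.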

Other observations

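WT replicate 5 had the highest WT value of Pou2af1 (59138), Tcf3 (12356) and Ikzf3 (28722) and the lowest of Pax5 (42063) and Ikzf1 (23940). Cd34, a gene of blood progenitors that was not tested because few libraries reached the minimum, was at 2909 normalized counts in 1 Whsc1-KO library and at 5.2 or less in every WT library.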
